A study of Mus musculus with 4 samples.

Results

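The adult haemoglobin chains of the mouse were examined as a group of 4 genes, HBA-A1 and HBA-A2 for the alpha chain and HBB-BS and HBB-BT for the beta chain. Of these 4 names, 3 had a row among the 25824 gene symbols of the count tables, and HBA-A2 had none, so every value below is for HBA-A1, HBB-BS and HBB-BT. The genes were chosen by earlier results from the same tables, in which HBB-BS led a group of spermatid-like barcodes and differed between genotypes. The counts of these genes, their difference between genotypes and the shape of their spread are therefore given as descriptions without a test.

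Single-cell RNA sequencing was performed on dissociated testes to learn how loss of Ctcf, which encodes a DNA-binding protein that organizes the genome, alters spermatogenesis. The 2 WT libraries came from mice labelled C56BL/6J (Ctcf wt/wt), and the study's methods describe WT animals as littermates that could also carry floxed Ctcf alleles. The 2 Ctcf-cKO libraries, numbered 1 and 3 in the labels, came from mice labelled C56BL/6J (Stra8-iCre-Ctcf f/Δ), in which Cre is driven by the promoter of Stra8, a germ cell gene. All 4 mice were 15 weeks old. Cells were isolated in droplets (ddSEQ), libraries were made from the 3′ ends of transcripts, the pellets had been washed in PBS to remove erythrocytes, and filtrates of more than 1 tube were pooled for Ctcf-cKO.

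Haemoglobin is a tetramer of a pair of alpha and a pair of beta chains, each of which holds a haem that binds oxygen. The chains are made in red cell precursors, which then lose their nucleus, so that young red cells carry few transcripts besides those of globin. Later germ cells of the testis, spermatids included, lie behind the blood-testis barrier, while blood vessels run between the tubules.

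In the GENCODE M21 annotation of GRCm38, all 4 genes are protein coding and have 3 exons in the transcript used here. HBA-A1 (ENSMUSG00000069919.7) lies on the plus strand of chromosome 11 from 32283511 to 32284465, and HBA-A2 follows it from 32296489 to 32297298. HBB-BS (ENSMUSG00000052305.6) lies on the minus strand of chromosome 7 from 103826534 to 103828096, and HBB-BT (ENSMUSG00000073940.3) from 103812524 to 103813996. The transcripts of HBA-A1 and HBA-A2 share an identical run of 415 bases, and 122 bases in a row are identical within the last 150 bases, where a 3′ library reads. Reads of HBA-A2 from those bases cannot be told apart from reads of HBA-A1. HBB-BS and HBB-BT share a run of 430 bases elsewhere, but within their last 150 bases no identical run exceeds 18.

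The promoters of the 3 measured genes are shown because their transcripts moved together between mice. Each runs from 250 bases before to 50 after the RefSeq start on GRCm38.p6, at chr11:32283422-32283721 on the plus strand for HBA-A1, and on the minus strand at chr7:103827879-103828178 for HBB-BS and chr7:103813874-103814173 for HBB-BT. Capitals mark on either strand the CCAAT box, the CACCC core of the element bound by the red cell factor KLF1, the GATA factor form AGATAA, and the letters ATAAA of many TATA boxes.
HBA-A1: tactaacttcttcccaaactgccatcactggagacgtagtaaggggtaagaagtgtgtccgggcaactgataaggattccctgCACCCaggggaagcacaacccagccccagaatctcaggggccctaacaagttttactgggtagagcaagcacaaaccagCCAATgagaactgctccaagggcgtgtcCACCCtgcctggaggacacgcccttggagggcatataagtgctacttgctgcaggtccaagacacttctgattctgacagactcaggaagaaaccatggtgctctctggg
HBB-BS: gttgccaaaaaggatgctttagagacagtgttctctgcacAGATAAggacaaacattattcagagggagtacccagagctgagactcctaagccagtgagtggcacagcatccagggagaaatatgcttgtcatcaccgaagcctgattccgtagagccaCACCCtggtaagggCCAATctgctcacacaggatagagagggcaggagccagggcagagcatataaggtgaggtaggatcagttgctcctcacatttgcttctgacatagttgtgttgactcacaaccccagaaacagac
HBB-BT: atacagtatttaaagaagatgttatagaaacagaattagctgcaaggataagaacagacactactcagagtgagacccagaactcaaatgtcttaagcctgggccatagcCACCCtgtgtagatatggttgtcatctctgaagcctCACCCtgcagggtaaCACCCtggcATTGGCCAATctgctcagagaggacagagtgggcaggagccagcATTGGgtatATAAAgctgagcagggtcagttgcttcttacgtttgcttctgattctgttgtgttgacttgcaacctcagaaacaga
CCAAT stood 88, 76 and 75 bases before the start of HBA-A1, HBB-BS and HBB-BT, and the HBB-BT promoter held 2 more copies on the reverse strand. The CACCC core was present in all 3, at 1 to 3 places. The exact letters AGATAA were found in HBB-BS alone of the 3, and ATAAA in HBB-BT alone. In all 3 the letters gataag were present, and AGATAA matched at that place in HBB-BS only. The letters catataag, which ATAAA does not match, stand in both HBA-A1 and HBB-BS. The first of the reverse-strand CCAAT copies of HBB-BT adjoins the forward one. Among 32851 promoters of the same length, 37.4% held the CCAAT box on either strand, 57.5% the CACCC core, 11.2% the GATA form and 40.0% the TATA form. The HBB-BS and HBB-BT promoters were 72.4% identical over their alignment, against 51.5% for HBA-A1 and HBB-BS, and those of HBA-A1 and HBA-A2 were 98% identical. A match describes the letters in this window and not binding.

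The libraries held 6701235 and 4859455 counts in WT against 2652665 and 1593546 in Ctcf-cKO, spread over 5603 to 6474 barcodes. In the same order 4227, 2075, 327 and 293 barcodes had 200 to 7000 genes and at most 10% mitochondrial counts, the limits the study states. In WT these are far more barcodes than the study counted as cells, so they are not its cells. CTCF itself had 110 and 49 counts in WT against 4 and 7 in Ctcf-cKO. Leydig and Sertoli cell markers, described with the red cell genes, were higher in the Ctcf-cKO libraries as well. Any pair of libraries shared between 723 and 1310 barcode sequences, and no barcode had at least 5% haemoglobin in both libraries of a pair.

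Haemoglobin counts were far more abundant in the Ctcf-cKO libraries. The 3 chains together had 196.7 and 12.3 CPM (counts divided by the library total and multiplied by 1000000) in WT against 2113 and 1377 in Ctcf-cKO, so that the lowest Ctcf-cKO value was 7.0-fold above the highest WT value. The genotypes did not overlap, an order that was not counted over all genes. With haemoglobin-rich barcodes left out, as defined next, the WT values were 7.02 and 12.3 CPM and the ratio of lowest to highest rose to 96.0. With the barcode that held most haemoglobin counts left out of each mouse, a choice made after seeing the data, it was 176. In such sums, fewer cells of a type and less RNA per cell cannot be told apart, and with 2 mice against 2 no exact permutation test can give a p below 0.33.

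Each chain showed this pattern. HBB-BS, the major adult beta chain gene, had 877 and 29 counts in WT against 3871 and 1537 in Ctcf-cKO. Its lowest Ctcf-cKO level was 965 CPM, 7.37-fold above the highest WT level. HBA-A1 had 408 and 19 counts against 955 and 468, a ratio of 4.82 between the lowest Ctcf-cKO and the highest WT level in CPM. HBB-BT, the other adult beta gene of the cluster, had 33 and 12 counts against 780 and 189, a ratio of 24.1. These ratios depend on the haemoglobin-high barcode of WT replicate 1, described next, and with haemoglobin-high barcodes left out they were 140.6 for HBB-BS, 63.8 for HBA-A1 and 36.4 for HBB-BT. For each of the 3 chains both Ctcf-cKO levels lay above both WT levels. How many of all genes have this order was not counted. By edgeR, 18.4% of 14552 tested genes were called higher in Ctcf-cKO.

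The number of barcodes with any haemoglobin count followed the same order. It was 22 of 5603 and 4 of 6474 barcodes in WT and 397 of 5919 and 387 of 6407 in Ctcf-cKO. Because barcodes differed in depth, each of at least 200 counts was also reduced to 200 counts at random. A haemoglobin count was then found in 0.186% and 0.0605% of barcodes in WT against 7.06% and 7.79% in Ctcf-cKO. The unthinned shares of the same barcodes were 0.418%, 0.121%, 9.51% and 11.9%, with median depths of 1033, 541, 315 and 264 counts. Both Ctcf-cKO libraries were thus shallower than both WT libraries and had the higher shares. Between the WT libraries, the shallower one had the lower share.

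**Figure D1:**
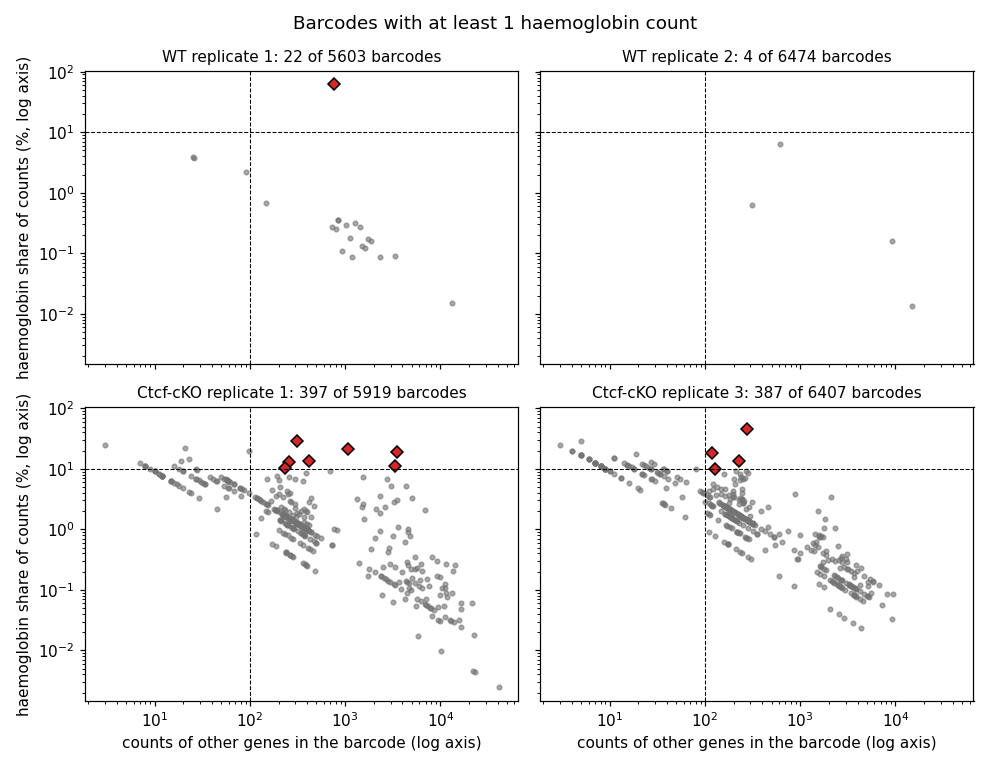
Haemoglobin share of a barcode's counts (percent, log axis) against its counts of other genes (log axis), for each mouse and for barcodes with at least 1 haemoglobin count. Dashed lines mark a share of 10% and 100 counts of other genes, and red diamonds are the haemoglobin-high barcodes, of which WT replicate 1 had 1, WT replicate 2 had 0, Ctcf-cKO replicate 1 had 7 and Ctcf-cKO replicate 3 had 4.

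Red cell-like barcodes were sought as those in which haemoglobin made up at least 10% of the counts and which had at least 100 counts of other genes. Such haemoglobin-high barcodes were rare in every mouse. They numbered 1 of 4601 in WT replicate 1, 0 of 3503 in WT replicate 2, which allows a share of up to 0.0856% (3 barcodes of the total), 7 of 3796 in Ctcf-cKO replicate 1 and 4 of 3440 in Ctcf-cKO replicate 3. Exact (Clopper-Pearson) 95% intervals of these shares ran from 0.000550% to 0.121% in WT replicate 1, from 0.0742% to 0.380% in Ctcf-cKO replicate 1 and from 0.0317% to 0.297% in Ctcf-cKO replicate 3. Barcodes of a library are not replicates, so these intervals do not compare the genotypes. At a share of 5% the numbers were 1, 1, 20 and 16, and at 20% they were 1, 0, 2 and 1.

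The barcode of WT replicate 1 stood apart from every other barcode in the series. It had 2036 counts, of which 1271 or 62.4% were haemoglobin, with 400 for HBA-A1, 843 for HBB-BS and 28 for HBB-BT. It had 379 genes and no mitochondrial counts, and the next highest share in that mouse among barcodes of at least 100 counts of other genes was 0.680%, from 1 haemoglobin count. This barcode alone held 96.4% of the haemoglobin counts of WT replicate 1. In WT replicate 2 the highest share was 6.28%, in a barcode with 41 haemoglobin counts among 653, and it held 68.3% of the haemoglobin counts of that mouse.

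In the Ctcf-cKO mice shares went on just below the limit of 10%, and 1 barcode of replicate 3 stood apart at the top. In Ctcf-cKO replicate 1 they had shares from 10.4% to 28.7%, and the next barcode below the limit had 9.15%. In Ctcf-cKO replicate 3 they had shares of 45.4%, 17.9%, 13.3% and 10%, and the next barcode had 9.32%. The one at 45.4% had 231 haemoglobin counts among 509. The 2 largest of Ctcf-cKO replicate 1 had 4297 and 3744 counts and 776 and 739 genes, with shares of 19.3% and 11%. The smallest of the 11 had 140 counts in 63 genes. Those limits on genes and mitochondrial counts would keep 3 of the 7 in Ctcf-cKO replicate 1, 0 of the 4 in Ctcf-cKO replicate 3 and the 1 in WT replicate 1.

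These barcodes accounted for a minor part of the Ctcf-cKO haemoglobin counts, 31.9% in replicate 1 and 13.9% in replicate 3. Below 100 counts of other genes, 13 barcodes of Ctcf-cKO replicate 1 and 48 of replicate 3 also reached 10%. Of these, 11 and 47 had at most 4 haemoglobin counts. A haemoglobin value of 4 was also the most frequent one above 0 in both Ctcf-cKO mice, at 39.8% and 34.4% of such values, while 1 made up 9.94% and 14.2%. A count is therefore not taken as 1 molecule, and the intervals given here cover counting error only and are too narrow.

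**Figure D2:**
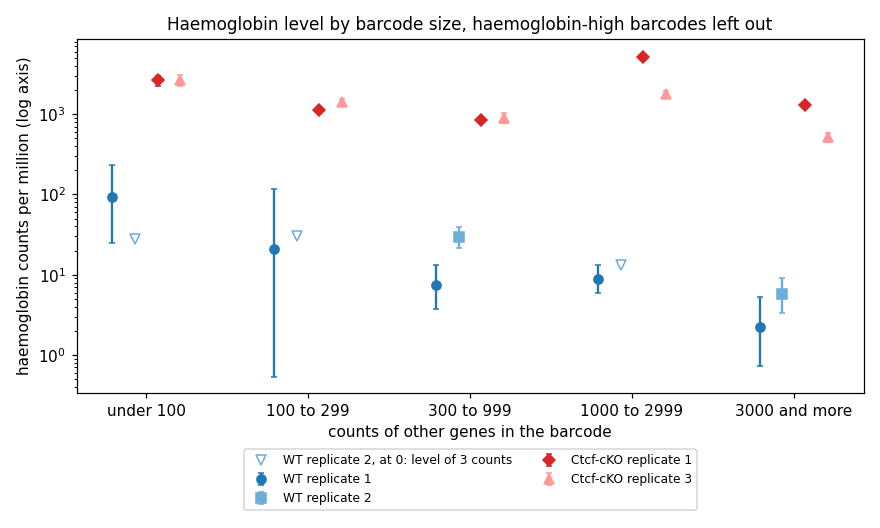
Haemoglobin CPM (log axis) by the number of counts of other genes in the barcode, with haemoglobin-high barcodes left out. Points are single mice with exact 95% Poisson intervals, and open triangles mark ranges of WT replicate 2 without a haemoglobin count, drawn at the level of 3 counts. In every range both Ctcf-cKO mice lie between 516 and 5110 CPM and the WT values at or below 92.2 CPM.

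Away from the haemoglobin-high barcodes, the level was high in Ctcf-cKO at every barcode size. In barcodes under 100 counts of other genes, which are too small for most cells, the level was 2633 and 2643 CPM in Ctcf-cKO, against 92.2 CPM from 4 counts in WT replicate 1 and 0 counts in WT replicate 2. In WT replicate 2 the total of such barcodes set the level of 3 counts at 27.6 CPM. From 100 to under 300 counts the Ctcf-cKO levels were 1126 and 1428 CPM, and from 300 to under 1000 counts they were 846 and 900 CPM, against 7.48 and 29.6 CPM in WT. With haemoglobin-high barcodes included, the last range was at 871 and 29.6 CPM in WT and 1153 and 900 CPM in Ctcf-cKO, so that WT replicate 1 came close to the Ctcf-cKO mice through 1 barcode. In all barcodes under 1000 counts of other genes, the lowest Ctcf-cKO level was then 1.57-fold the highest WT level, and 0.891-fold for HBA-A1. Without haemoglobin-high barcodes the level fell over these 3 ranges in both Ctcf-cKO mice, and these ranges hold most barcodes.

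Among larger barcodes the Ctcf-cKO mice diverged. From 1000 to under 3000 counts of other genes the level was 5110 CPM in Ctcf-cKO replicate 1 and 1787 CPM in replicate 3. From 3000 counts it was 1319 and 516 CPM, against 2.24 and 5.72 CPM in WT. The high value of Ctcf-cKO replicate 1 came from 28 of 88 barcodes, 5 of which held 62.0% of the counts, and without the largest of these it was 3961 CPM. In barcodes of at least 3000 counts, haemoglobin-high ones included, a haemoglobin count was present in 87 of 158 (55.1%) and 50 of 87 (57.5%) in Ctcf-cKO and in 2 of 128 and 2 of 238 in WT. The median barcode in this range had 0.0297% and 0.0760% haemoglobin in Ctcf-cKO and 0 in WT.

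The ratio of large to small barcodes also had opposite directions in the 2 Ctcf-cKO mice. In replicate 1, barcodes of at least 1000 counts of other genes had log2 ratios over smaller ones of 0.49 for HBA-A1, 0.75 for HBB-BS and 0.65 for HBB-BT, against a median of 0.16 over 6875 genes. In replicate 3 the log2 ratios were -0.21, -0.64 and -0.61, against a median of 0.08 over 4991 genes. Haemoglobin-high barcodes were left out of both.

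**Figure D3:**
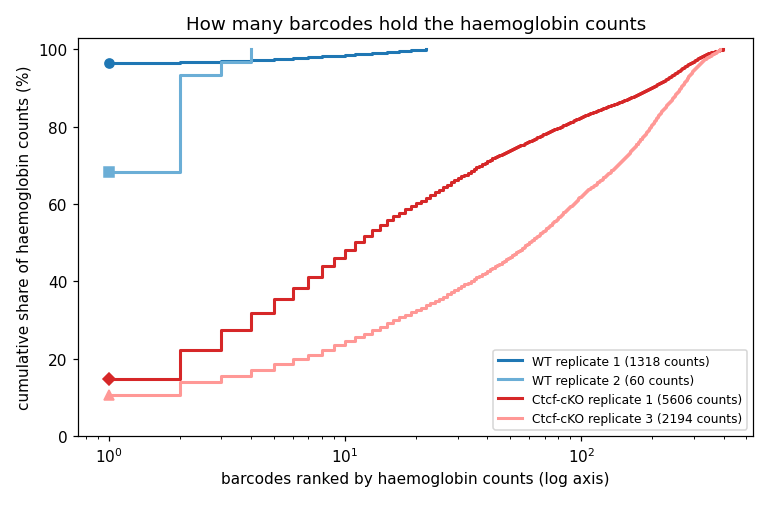
Cumulative share of each mouse's haemoglobin counts (percent) over barcodes ranked by their haemoglobin counts (log axis), with a symbol at the first barcode. The first barcode holds 96.4% and 68.3% of the counts in WT against 14.8% and 10.5% in Ctcf-cKO.

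Haemoglobin was found in few barcodes in WT and in many in Ctcf-cKO. The top 1% of barcodes, ranked by haemoglobin itself, held 76.2% and 51.8% of its counts in Ctcf-cKO and all of them in WT, where fewer barcodes than that had any. This share nears its limit for any gene found in few barcodes, so it is not compared with other genes. The leading barcode held 14.8% and 10.5% of haemoglobin counts in Ctcf-cKO, against medians over genes of 5.04% and 6.14%. In WT replicate 1 it held 96.4%, against a median of 3.81%. Among the chains of Ctcf-cKO replicate 3, HBB-BS had counts in 302 barcodes, HBA-A1 in 112 and HBB-BT in 51.

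**Figure D4:**
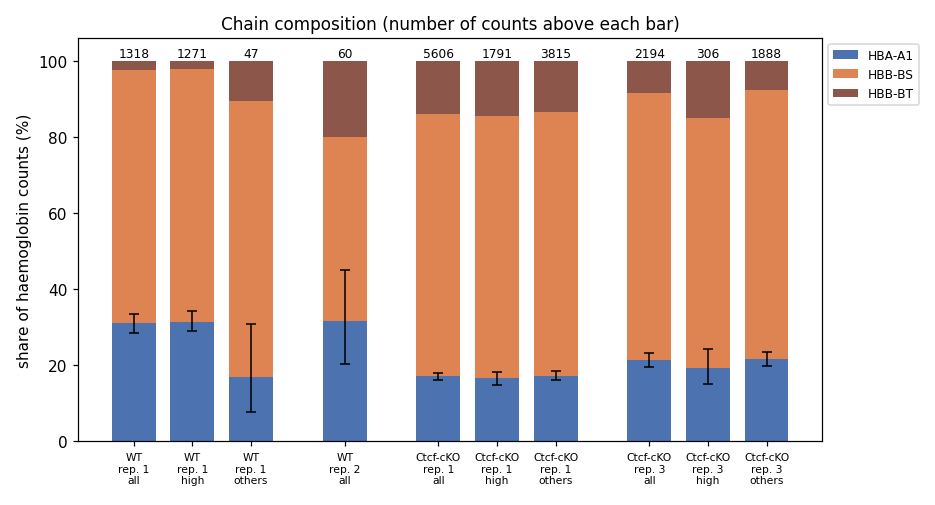
Share of haemoglobin counts (percent) from HBA-A1, HBB-BS and HBB-BT in all barcodes, in haemoglobin-high barcodes and in the others, for each mouse. Black bars are exact 95% binomial intervals of the HBA-A1 share and the numbers are haemoglobin counts. HBA-A1 makes up 31.0% and 31.7% in all barcodes of the WT mice and 17.0% and 21.3% in those of the Ctcf-cKO mice.

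The share of HBA-A1 among haemoglobin counts was higher in the WT libraries, but for WT replicate 2 its interval overlapped that of Ctcf-cKO replicate 3. HBA-A1 gave 31.0% of haemoglobin counts in WT replicate 1 (95% interval 28.5% to 33.5%) and 31.7% in WT replicate 2 (20.3% to 45.0%), and 17.0% (16.1% to 18.0%) and 21.3% (19.6% to 23.1%) in Ctcf-cKO. The WT value of replicate 1 is in essence that of its 1 haemoglobin-high barcode, at 31.5%, and the 47 counts outside it gave 17.0% (7.65% to 30.8%). These are shares of counts and are not divided by transcript length, so they compare mice and barcodes rather than the chains.

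Within the Ctcf-cKO mice, the HBA-A1 share of haemoglobin-high and other barcodes was 16.5% and 17.3% in replicate 1 and 19.3% and 21.7% in replicate 3, with overlapping intervals. At the 5% limit it was 16.2% and 17.8% in replicate 1, but 15.5% (12.5% to 18.9%) and 23.2% (21.2% to 25.3%) in replicate 3, where the intervals did not overlap. Of the 523 counts of that high group, 231 came from 1 barcode, and HBA-A1 was found in 8 of its 16 barcodes. Counts of a barcode are not independent, so these intervals do not test the difference. Single haemoglobin-high barcodes ranged from 0% to 31.8%, and HBA-A1 was found in 5 of 7 and 3 of 4 of them, while HBB-BS was found in all 11. HBB-BT made up 3.63% and 29.3% of beta chain counts in WT, the latter of only 41 counts, and 16.8% and 11% in Ctcf-cKO. Outside its haemoglobin-high barcode, the share in WT replicate 1 was 12.8% (4.30% to 27.4%), an interval that holds both Ctcf-cKO values. In Ctcf-cKO replicate 3 it reached 18.6% (14% to 24.0%) in haemoglobin-high barcodes against 9.67% (8.21% to 11.3%) in the others, and 40 of its 46 counts in the former were from 1 barcode. Across barcodes of at least 100 counts of other genes, log levels of pairs of chains had Pearson correlations of 0.255 to 0.395 in Ctcf-cKO (3440 and 3796 barcodes). In WT they were 0.548 to 0.998 (4601 and 3503 barcodes) and rested on the few barcodes that held any haemoglobin.

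Other genes of red cells were looked for in the haemoglobin-high barcodes. Of 98 genes in 6 lists, 78 had a row. SLC4A1, EPB42 and AHSP, which mark red cells, had none, and neither did 10 of 13 other globins. In the WT barcode, with 765 counts of other genes, haem synthesis, red cell membrane, erythroid regulator and scavenging genes had 0 counts, and the exact 95% interval of each list ended at 4822 CPM. Red cell enzyme and reticulocyte genes had 9 counts there or 11765 CPM (5380 to 22333), against 3902 CPM in the other barcodes of that mouse. Elongating spermatid genes had 29 counts or 37909 CPM, against 82409 CPM in the others.

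In the 7 barcodes of Ctcf-cKO replicate 1, haem synthesis genes had 11 counts or 1210 CPM (95% interval 604 to 2166), against 387 CPM in the other barcodes of at least 100 counts. Red cell enzyme and reticulocyte genes had 108 counts or 11884 CPM against 7023 CPM, and erythroid regulators had 7 counts or 770 CPM (310 to 1587) against 254 CPM. At the 5% limit the regulators had 9 counts or 383 CPM (175 to 727) in this mouse, an interval that holds the 254 CPM of the others. The 4 barcodes of Ctcf-cKO replicate 3 had 751 counts of other genes in all. Of these, 3 belonged to haem synthesis and 13 to red cell enzyme and reticulocyte genes, and 0 to regulators or membrane genes. Endothelial genes had 3 as well. At the 5% limit in replicate 3, haem synthesis had 878 CPM (181 to 2567) against 424 CPM. Red cell enzyme and reticulocyte genes had 7906 CPM (5210 to 11503) against 6840 CPM. Both intervals hold the level of the others. In replicate 1 at 5% these 2 lists had 936 and 9273 CPM, above the 385 and 7019 CPM of the others. ALAS2, the red cell form of the first enzyme of haem synthesis, had 14 of its 68 counts in the 20 barcodes of at least 5% haemoglobin of Ctcf-cKO replicate 1, in 3 of these barcodes, and 3 of 44 in the 16 of replicate 3.

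Spermatid transcripts were present in these barcodes too. Genes of elongating spermatids, such as the protamines, made up 156360 CPM of other counts in the 7 barcodes and 116050 CPM in the others, and in replicate 3 they made up 78562 and 119041 CPM. Leydig cell genes were at 7592 and 9479 CPM in replicate 1 and at 0 and 7974 CPM in replicate 3. The test of their other genes used mice with at least 5 haemoglobin-high barcodes, a minimum set here. Ctcf-cKO replicate 1 alone reached it, so no test over mice was made at 10%. At the 5% limit, an alternative, high and other barcodes of both Ctcf-cKO mice could be compared. edgeR's quasi-likelihood test then called 0 of 7704 genes (0%), and 19 of them had an unadjusted p under 0.05. DESeq2 called 16 of 7087 higher (0.226%) and 0 lower. At 10% with at least 50 counts of other genes, where 8 and 5 barcodes could be summed, edgeR called 0 of 7657 genes, and 0 had an unadjusted p under 0.05. ALAS2 had a log2 difference of 3.53 in the edgeR fit at 5% (standard error 2.45, adjusted p = 0.667, edgeR). This value rests on 14 and 3 counts in the high sums and 54 and 39 in the others. It also depends on TMM factors estimated from these small sums. The haemoglobin-high sums at 5% held 23510 and 3415 counts of other genes, and in data simulated at this depth the edgeR test recovered none of the planted changes, so its 0 calls do not show that the other genes were alike.

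None of the genes compared followed the chains closely over barcodes. Among 4458 genes with at least 50 counts in each mouse, the mean Pearson correlation with haemoglobin over the 4 mice was highest for FTH1, which encodes the heavy chain of the iron store ferritin, at 0.0757, and the median over genes was 0.0126. UQCC3, ACTN4 and GSN followed at 0.0734, 0.0705 and 0.0624. Values this low in sparse counts do not set these genes apart. The minimum of 50 counts in each mouse left out genes low in WT, ALAS2 among them. The mean also gave WT mice equal weight, although few of their barcodes held haemoglobin. Red cell genes that are low in WT were therefore not assessed here.

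Among larger Ctcf-cKO barcodes, haemoglobin was lowest where elongating spermatid RNA was lowest. This relation is close to the one by which the genes were chosen and is a description. Barcodes of at least 1000 counts of other genes, without haemoglobin-high ones, were split into 3 equal groups by the share of 15 elongating spermatid genes. In Ctcf-cKO replicate 1 haemoglobin was at 197, 1611 and 3602 CPM from the lowest to the highest group, and in replicate 3 at 400, 1738 and 1051 CPM. Without the barcode richest in haemoglobin of each group the values were 149, 1210 and 3114 CPM, and 371, 1373 and 949 CPM. Only replicate 1 had its highest level in the highest group, with and without those barcodes. The WT groups had 3, 18 and 10 haemoglobin counts in replicate 1 and 0, 15 and 2 in replicate 2. Split by Leydig cell genes, haemoglobin in Ctcf-cKO was also lowest in the lowest group. It was at 501, 3399 and 1682 CPM in replicate 1 and 806, 1076 and 1122 CPM in replicate 3. Split by macrophage genes it was at 1421, 1254 and 2701 CPM in replicate 1 and 462, 857 and 1859 CPM in replicate 3. Split by round spermatid or spermatocyte genes it was lowest in the highest group of both mice. By Sertoli cell genes the mice differed.

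From the lowest to the highest elongating spermatid group, HBB-BS had log2 ratios of 3.94 in Ctcf-cKO replicate 1 and 1.52 in replicate 3. The medians over 3646 and 2286 genes were -0.82 and -0.54. HBA-A1 had 4.38 and 1.38, and HBB-BT had 5.96 and 0.16, the last from 15 and 14 counts. Spearman's rho between the haemoglobin share and the elongating spermatid share over these barcodes was 0.32 (244 barcodes) and 0.19 (237 barcodes). For macrophage genes it was 0.11 and 0.35. All barcodes of a mouse share a library.

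**Figure D5:**
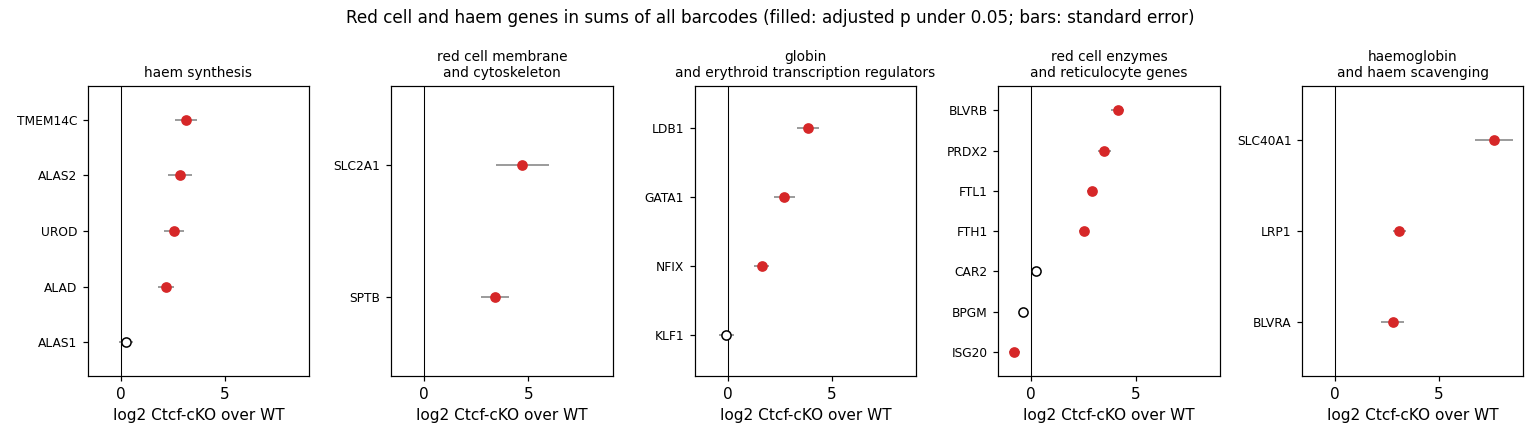
Log2 ratio of Ctcf-cKO over WT in sums of all barcodes for the genes named from 5 red cell and haem lists, from edgeR, with bars of 1 standard error and filled points for an adjusted p under 0.05. ALAS2 lies at 2.85 and BLVRB at 4.14, ISG20 is the filled point below 0, and SLC40A1 rests on 1 and 0 counts in WT.

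The other genes of the pathway were compared between genotypes in sums of all barcodes per mouse by edgeR's quasi-likelihood F test over 14552 genes. In this comparison 2673 genes (18.4%) were higher and 1477 (10.1%) lower in Ctcf-cKO at an adjusted p under 0.05, and the median log2 fold change of all genes was -0.04. Without the filter on low genes, 2559 were higher and 2183 lower. Of 12 haem synthesis genes tested, 7 were higher and 0 lower, with a median log2 fold change of 2.14. When each mouse was left out the number higher was 4 to 7, and it was 4 without Ctcf-cKO replicate 1. ALAS2 rose from 11 and 30 counts in WT to 68 and 44 in Ctcf-cKO, or by 2.85 on the log2 scale (SE 0.59, edgeR adjusted p = 0.00409). TMEM14C, which moves haem precursors into mitochondria, rose from 4.03 and 1.85 to 23.0 and 27.6 CPM. UROD and ALAD, enzymes of the pathway, had log2 fold changes of 2.58 and 2.20. ALAS1, the form of the first enzyme in other tissues, had 30.9 and 47.5 CPM against 38.5 and 53.3 CPM (adjusted p = 0.568, edgeR).

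Among red cell enzyme and reticulocyte genes, 11 of 19 rose and 1 fell. When each mouse was left out, 8 to 12 were higher. BLVRB, a reductase abundant in red cells, rose from 5.67 and 6.17 to 95.8 and 104.8 CPM (log2 difference 4.14, SE 0.31, edgeR adjusted p = 3.87e-06). The antioxidant enzyme PRDX2 rose from 8.51 and 9.05 to 97.6 and 92.2 CPM. FTL1 and FTH1, the ferritin chains, had log2 fold changes of 2.90 and 2.51. ISG20, an exonuclease, was lower, at 208.8 and 128.2 CPM against 73.9 and 108.6 CPM (adjusted p = 0.0380, edgeR), but 0 genes of the list fell with either Ctcf-cKO mouse left out. BPGM, which makes the regulator of oxygen binding in red cells, and CAR2, a carbonic anhydrase, had log2 fold changes of -0.38 and 0.22 (adjusted p = 0.179 and 0.524, edgeR). PRDX2, ferritin and several others of the list are made in most tissues.

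Regulators, membrane and scavenging genes passed the threshold in smaller numbers, to be read against the 18.4% of all tested genes that were higher. Of 9 regulators 3 rose, namely LDB1, GATA1 and NFIX, and 5 rose without WT replicate 2. GATA1, a master factor of red cells that Sertoli cells make as well, rose from 4.03 and 2.88 to 17.3 and 27.0 CPM. KLF1, the factor that activates the adult beta chain gene, had 19.5 and 23.9 CPM in WT and 20.7 and 18.8 CPM in Ctcf-cKO (adjusted p = 0.916, edgeR). Of 10 membrane and cytoskeleton genes 2 rose, a share near that of all genes. They were SPTB, the beta spectrin of red cells, and the glucose transporter gene SLC2A1, which had 0 and 2 counts in WT against 19 and 5 in Ctcf-cKO, and their number was 1 with WT replicate 1 or either Ctcf-cKO mouse left out. Of 8 scavenging genes 3 rose, namely SLC40A1, LRP1 and BLVRA. SLC40A1, the iron exporter of macrophages, had 1 and 0 counts in WT against 38 and 50 in Ctcf-cKO. Of the 2 other globins tested, CYGB and NGB, 0 passed the threshold with edgeR or DESeq2, although NGB had an unadjusted p of 0.0295 with edgeR. With at least 10 counts required in every mouse, 1 passed. With haemoglobin-high barcodes left out, each of these lists had as many genes higher and lower as with all barcodes. The barcodes left out held only 765 and 0 counts of other genes in WT and 9088 and 751 in Ctcf-cKO. Leaving them out could therefore hardly change these numbers.

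Markers of several other cell types moved with the same contrast, in which 18.4% of all tested genes were higher. Of genes tested, 12 of 12 Leydig cell, 10 of 10 Sertoli cell and 10 of 12 macrophage genes rose, as did 3 of 5 genes of other blood cells. Of 5 endothelial genes 1 rose, PECAM1, a share near that of all genes. DESeq2 called 3 of the 12 macrophage genes higher, 11 of the Leydig cell and 10 of the Sertoli cell genes, and with either Ctcf-cKO mouse left out edgeR called 7 macrophage genes higher. The macrophage list summed to 763 and 945 CPM in WT, most of it AIF1, and to 1762 and 1978 CPM in Ctcf-cKO. Its LYZ2 had 2 and 192 counts and C1QA 0 and 47 in WT, so the WT mice differed from each other, while the Ctcf-cKO mice had 988 and 683 counts of LYZ2. PF4, a platelet gene, had 0 and 17 counts against 145 and 111. Against 10.1% of all tested genes that were lower, 6 of 12 spermatocyte genes fell, but 0 without Ctcf-cKO replicate 1 and 1 without replicate 3. Of 12 round spermatid genes 11 fell, and 4 fell without Ctcf-cKO replicate 3. Of 15 elongating spermatid genes 1 rose, while 13 rose without WT replicate 2, and 3 fell without WT replicate 1. The part of these cell types in the differences of haemoglobin and red cell genes was not tested.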

How the data were processed

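Droplet 3′ libraries of the testes of 2 WT and 2 Ctcf-cKO mice were used, 1 per mouse. The authors aligned the reads to GRCm38, per the methods and the submitters' processing notes, and deposited raw counts, as whole numbers for every gene symbol in every barcode. For the count matrices the methods cite earlier reports, followed with default parameters. The counting tool and how reads of 1 molecule were merged are not named in the sources used here. The 1 duplicated symbol of each table was summed, and 21 to 23 symbols that had become dates were kept.

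Members and gene lists were chosen with earlier results of these data known. The mouse was the replicate. Counts were summed per mouse and tested in edgeR 4.0.16 with limma 3.58.1 under R 4.3.3 (quasi-likelihood test with TMM factors and filterByExpr, and p-values adjusted by Benjamini-Hochberg at 0.05). DESeq2 1.42.0 was an alternative. All barcodes were used, and the study's limits of 200 to 7000 genes and at most 10% mitochondrial counts were an alternative. No doublet caller was run. Levels, shares, exact 95% intervals and figures were made in Python 3.11.15 with numpy 2.4.6, pandas 2.3.3, scipy 1.17.1 and matplotlib 3.10.9. A count of 0 was given the level of 3 counts as its limit. Scripts were tested on simulated data.

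For likeness, Pearson's r was computed over barcodes of at least 100 counts of other genes, between log2(1 + counts per 10000 counts of other genes) of a gene and of the chains, and averaged over mice. Red cell genes of at least 50 counts in all could be named, along with the 10 genes of highest likeness and up to 10 rising and 10 falling genes of the test between barcodes. SLC2A1 and the markers of other cell types were named after their values were seen. The values of 1 gene of the red cell lists are not reported here. Other settings are described with the closing observations.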

Additional observations from a re-analysis of the deposited data

How the results depend on the processing

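Between genotypes, 2673 genes were higher and 1477 lower in sums of all barcodes. In barcodes under 200 genes alone the numbers were 460 and 46, and with a mouse left out they ranged from 1373 to 2478 and from 337 to 1966. DESeq2, other factors, library totals, other filters on low genes and the study's barcode limits kept both numbers within 1.5 times. In these barcodes, where 460 of 7879 tested genes were higher, 1 of 8 haem synthesis and 7 of 17 red cell enzyme genes were higher. Of 4 membrane, 4 regulator and 3 scavenging genes tested there, 0 were higher, too few genes to set against all genes. The mice with at least 5 haemoglobin-high barcodes, of which there was 1, numbered 2 at a share of 5% or at 50 counts of other genes, 0 at 20% or under the study's limits, and 0 to 1 with a mouse left out. Haemoglobin-high barcodes numbered 2 in WT at 5%, and in Ctcf-cKO 36 at 5%, 3 at 20% and 3 under the study's limits. The genotype difference of mean log2 haemoglobin levels was 5.11, and 7.14 without haemoglobin-high barcodes or 8.15 without the leading barcode of each mouse, and with a mouse left out from 3.12, without WT replicate 2, to 7.11, without WT replicate 1. The top 5% of barcodes held 96.8% and 96.7% of the Ctcf-cKO haemoglobin counts. Where these values moved, the cause was not tested beyond the smaller number of barcodes or mice that such a setting leaves. Leaving out the leading barcode, and the 5% limit with DESeq2, other factors or no filter, were chosen after seeing the data. At 10% with at least 100 counts of other genes too few mice had the minimum of 5 barcodes set here. The test between barcodes, its alternatives with other tools and its genotype difference therefore gave no value. No paired analysis was possible because the genotypes share only replicate number 1. Depth limits the haemoglobin-high sums, with 751 counts of other genes in Ctcf-cKO replicate 3.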
